A study of Danio rerio with 6 samples.

Results

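Embryonic globins were examined in kdrl+ cells of zebrafish embryos, sorted by the fluorescence of an NF-kB reporter. The members were the rows of the deposited expression table whose gene name begins with hbae or hbbe. This rule matched 5 of the 2471 genes analysed, namely the alpha-type genes hbae1 (NCBI Gene 30597) and hbae3 (Gene 30601) and the beta-type genes hbbe1.1 (Gene 81538), hbbe2 (Gene 405772) and hbbe3 (Gene 30596). The embryos carried both NFKB:d2eGFP, which makes a short-lived green fluorescent protein under NF-kB control, and kdrl:mCherry, which marks vessels through the promoter of a VEGF receptor gene. They were taken at 22 hours post fertilization (hpf), and only the trunk was dissociated. The compared groups were kdrl+/NFKB+ cells (3 libraries) and kdrl+/NFKB- cells (3 libraries) of the same cross, with about 7000 cells per sample. The groups differ in reporter fluorescence alone by design, and NF-kB itself was not perturbed. The labels name the samples biological replicates but do not tell if separate pools of embryos were used. The p-values thus weigh a difference between the sorts against a spread between samples that may be partly technical.

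Hemoglobin is a tetramer of alpha-type and beta-type globin chains, each of which holds a heme group that binds oxygen. Zebrafish carry their alpha and beta globin genes side by side at a major and a minor locus, and embryos use a set of embryonic globins that is later replaced by adult ones. In the trunk, the first red cells form in the intermediate cell mass, close to the forming vessels, from mesoderm that also gives rise to endothelium. Their globin transcripts are among the most abundant messages of a red cell.

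The table holds log2(reads divided by a size factor, plus 1) for each library, and these scaled reads are called normalized reads here. It holds only genes that the authors had already found to differ at least 2-fold between these same libraries, at an adjusted p of 0.01 or less, so a difference between the sorts was a condition for being listed. The reads recovered for the table's genes ranged from 8393815 to 15165090 per library. Library names use the column numbers, since the columns give the sort but not the replicate number of the labels.

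Each of the 5 globins was about 6 to 8 times lower in NFKB+ than in NFKB- cells, and no library of one sort came near the other sort. Of all analysed genes, 45.4% were lower in NFKB+ cells with sorts that did not overlap, and 14.8% were lower by 4-fold or more, which held for 5 of the 5 globins. Because the table was selected on this contrast, these counts and the p-values below describe the listed genes and are no separate evidence of a difference. Fewer red cells in a sort and less globin RNA per cell cannot be told apart in such bulk samples.

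The alpha-type gene hbae1 had the most reads among the table's genes in each of the 6 libraries. Its level was 17.99, 18.28 and 18.31 (log2) in the NFKB+ libraries, against 20.96, 21.20 and 21.36 in the NFKB- libraries. In normalized reads this was 301328 ± 34901 in NFKB+ and 2380317 ± 323994 in NFKB- cells (SD, n = 3 each). The lowest NFKB- library still exceeded the highest NFKB+ library by 2.66 on the log2 scale. The difference was -2.98 with a standard error (SE) of 0.21, or 7.89-fold lower in NFKB+ cells (limma, Benjamini-Hochberg adjusted p = 3.76e-09). Its embryonic alpha-type relative hbae3 measured 16.73, 17.00 and 16.99 in the NFKB+ libraries, against 19.42, 19.63 and 19.94 in the NFKB- libraries. The sorts were well apart here too, and hbae3 was 6.76-fold lower in NFKB+ cells, a log2 difference of -2.76 with an SE of 0.18 (limma adjusted p = 1.51e-09).

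Among the beta-type genes, hbbe1.1 had the most reads. Its level was 17.39, 17.65 and 17.66 in the NFKB+ libraries, against 20.19, 20.44 and 20.72 in the NFKB- libraries. Among the table's genes it was the second most read in every library, and it was 7.38-fold lower in NFKB+ cells, with a log2 difference of -2.88 and an SE of 0.20 (limma adjusted p = 2.62e-09). The beta-type gene hbbe3, from the minor locus, measured 16.27, 16.52 and 16.57 in the NFKB+ libraries, against 19.08, 19.32 and 19.71 in the NFKB- libraries. It was 7.57-fold lower in NFKB+ cells, with a log2 difference of -2.92 and an SE of 0.18 (limma adjusted p = 9.79e-10). The third beta-type gene, hbbe2, also from the minor locus, had far fewer reads. Its level was 11.82, 11.94 and 12.12 in the NFKB+ libraries, against 14.26, 14.52 and 14.86 in the NFKB- libraries, a difference of -2.58 with an SE of 0.14 (limma adjusted p = 2.31e-10). At 5.99-fold lower in NFKB+ cells, this was the smallest fold of the 5 globins.

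**Figure D1:**
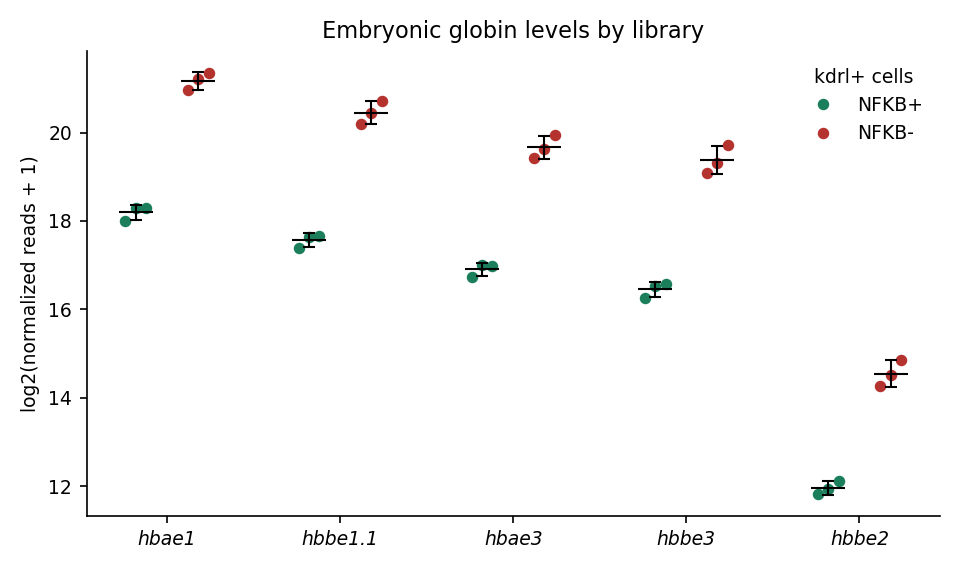
Levels of the 5 embryonic globins on the log2(normalized reads + 1) axis, with 1 point per library, NFKB+ left of NFKB- for each gene, and the mean ± SD (n = 3) as black bars. In each gene the 3 NFKB+ libraries lie below the 3 NFKB- libraries, by gaps between the nearest libraries of 2.14 (hbbe2) to 2.66 (hbae1).

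The order of the genes by reads was hbae1, hbbe1.1, hbae3, hbbe3 and hbbe2 in every library. Reads were not divided by transcript length, so this order ranks reads and not molecules. The neighbours hbae3 and hbbe3 were the closest of the order, at 16.90 ± 0.15 and 16.45 ± 0.16 in NFKB+ and at 19.66 ± 0.26 and 19.37 ± 0.32 in NFKB- libraries (log2, SD, n = 3). In NFKB- libraries the ranges of these genes over the libraries overlapped, although hbae3 had more reads than hbbe3 within each library. Counting error was small beside the spread between libraries. It was at most 1.75% for hbbe2 and 0.36% for the other 4 genes, whereas the coefficient of variation (CV) between libraries was 10.1% to 11.6% in NFKB+ and 13.6% to 22.2% in NFKB- cells.

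The genome annotation of RefSeq (GRCz12tu) names 11 embryonic globin genes, and 6 of them were found in the table by their gene IDs. The sixth is listed under the clone-based name zgc:163057 (Gene 563335), which the rule on names does not match and which RefSeq calls hbae4, an alpha-type gene next to hbbe3. It measured 11.42, 11.64 and 11.61 in the NFKB+ libraries, against 13.93, 14.21 and 14.45 in the NFKB- libraries, and was lower by 6.23-fold in NFKB+ cells, with a limma adjusted p of 1.01e-10. Its values thus lay beside those of hbbe2 in both level and fold. RefSeq's hbae1.2, hbae1.3, hbbe1.2, hbbe1.3 and hbae5, like the adult globins hbaa1, hbaa2, hbba1 and hbba2, were not among the genes analysed here. RefSeq gives hbae1 the name hbae1.1 and lists the genes hbae1.2 and hbae1.3 close by, and likewise hbbe1.2 and hbbe1.3 beside hbbe1.1. How reads of near-identical copies were counted is not given. They may have been shared, assigned to a single row or left uncounted. The values of hbae1 and hbbe1.1 may thus stand for several genes or be too low. The order by reads and the ratios that use these genes carry the same limit.

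The globins took a large part of the table's reads in the NFKB- libraries. Together the 5 genes held 6.69%, 7.48% and 7.84% of the table's normalized reads in NFKB+ libraries, against 35.9%, 39.7% and 41.7% in NFKB- libraries. The pair hbae1 and hbbe3 alone held 4.03% ± 0.349 in NFKB+ and 22.3% ± 1.45 in NFKB- cells (SD, n = 3 each), a difference of -18.3 percentage points. The sorts did not overlap, and the two-sided exact permutation test gave p = 0.1, the smallest value that 3 against 3 libraries allow. By gene, hbae1 held 3.10% ± 0.272 in NFKB+ and 17.3% ± 0.939 in NFKB- libraries, and hbbe1.1 held 2.00% ± 0.145 in NFKB+ and 10.5% ± 0.953 in NFKB- libraries. The shares of hbae3 were 1.27% ± 0.0907 in NFKB+ and 6.09% ± 0.522 in NFKB- libraries, and those of hbbe3 were 0.926% ± 0.0778 in NFKB+ and 4.99% ± 0.626 in NFKB- libraries. The share of hbbe2 was 0.0412% ± 0.00391 in NFKB+ and 0.176% ± 0.0201 in NFKB- libraries. The table is a selected part of each library, so these are not shares of all RNA. The widest 95% Wilson interval of a single library's share spanned 0.0564 percentage points, which covers counting error only.

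**Figure D2:**
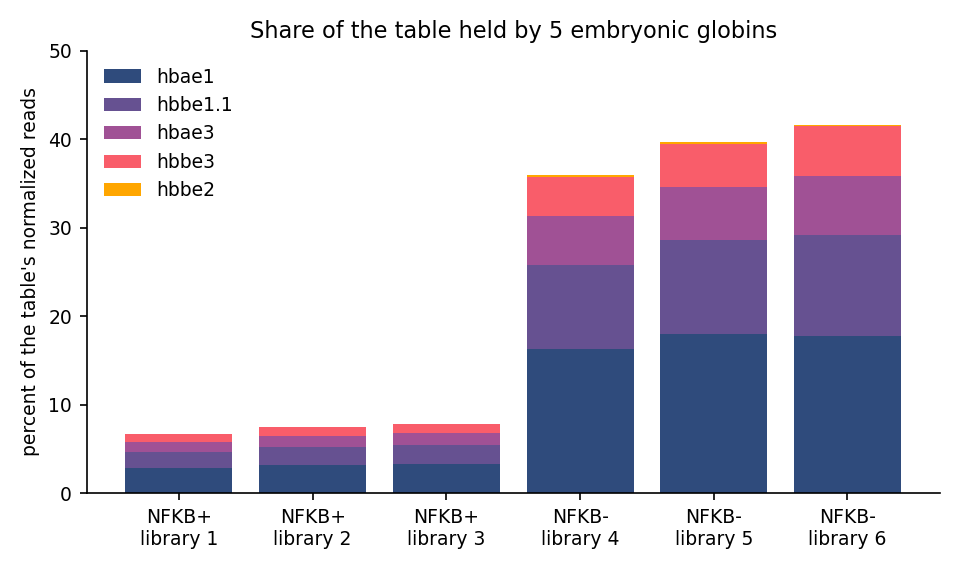
Stacked bars give the percent of the table's normalized reads held by each of the 5 globins in the 3 NFKB+ and the 3 NFKB- libraries. The stacks reach 6.69% to 7.84% in NFKB+ and 35.9% to 41.7% in NFKB- libraries, with hbae1 as the lowest and thickest layer of each.

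The table's totals of normalized reads differed between the sorts, at 9706873 ± 367207 in NFKB+ and 13706326 ± 1307450 in NFKB- cells (SD, n = 3 each). The difference between the sorts was -3999453 normalized reads for the whole table and -4668845 for the 5 globins, which averaged 713338 in NFKB+ and 5382182 in NFKB- cells. Without the 5 globins the totals ran from 8704498 to 9309424 in NFKB+ and from 8043628 to 8826295 in NFKB- libraries. Those ranges overlapped (two-sided exact permutation test, p = 0.2), with means of 8993535 in NFKB+ and 8324144 in NFKB- cells. With 3 libraries per sort, the test cannot show that these totals are alike. Genes outside the table were not seen, so the ranks that follow hold among the table's genes only. Apart from the globins, glula (glutamine synthetase) had the most of the table's reads in NFKB+ libraries, at 1.59%. Next came the tetraspanin gene cd81a at 1.22% and the phosphatase gene dusp5 at 1.09%. The keratin gene krt18 and the AP-1 gene junbb followed, at 1.03% each. Each of these was higher in NFKB+ cells, in a table that lists only genes that differ. In NFKB- libraries the leading other genes of the table were the heme enzyme gene urod at 1.53% and the ferritin gene fth1a at 1.12%. The anion exchanger gene slc4a1a at 1.01%, the carbonic anhydrase gene cahz at 0.866% and the nucleolin gene ncl at 0.801% followed. In NFKB+ libraries hbae1 and hbbe1.1 held more of the table's reads than glula, while hbae3 (1.27%) and hbbe3 (0.926%) held less. In NFKB- libraries hbae1, hbbe1.1, hbae3 and hbbe3 each held more than urod, while hbbe2 (0.176%) held less.

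The make-up of the globin reads differed much less between the sorts than their amount. The share of hbae1 among the reads of the 5 globins was 42.2% ± 0.341 in NFKB+ and 44.4% ± 1.52 in NFKB- cells (SD, n = 3 each). For hbbe1.1 it was 27.3% ± 0.214 in NFKB+ and 26.9% ± 0.471 in NFKB- cells, and for hbbe3 12.6% ± 0.135 in NFKB+ and 12.7% ± 0.745 in NFKB- cells, and for these genes the sorts overlapped. The share of hbae3 was 17.3% ± 0.193 in NFKB+ and 15.6% ± 0.368 in NFKB- cells, and that of hbbe2 was 0.562% ± 0.0341 in NFKB+ and 0.448% ± 0.0198 in NFKB- cells. The hbae3 and hbbe2 shares did not overlap between the sorts, and neither did that of hbae1, for which NFKB- library 6, at 42.6%, lay close to the NFKB+ libraries. For hbae1, hbae3 and hbbe2 the two-sided exact permutation test gave p = 0.1, the smallest possible, and 0.167 after adjustment over the 5 genes.

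**Figure D3:**
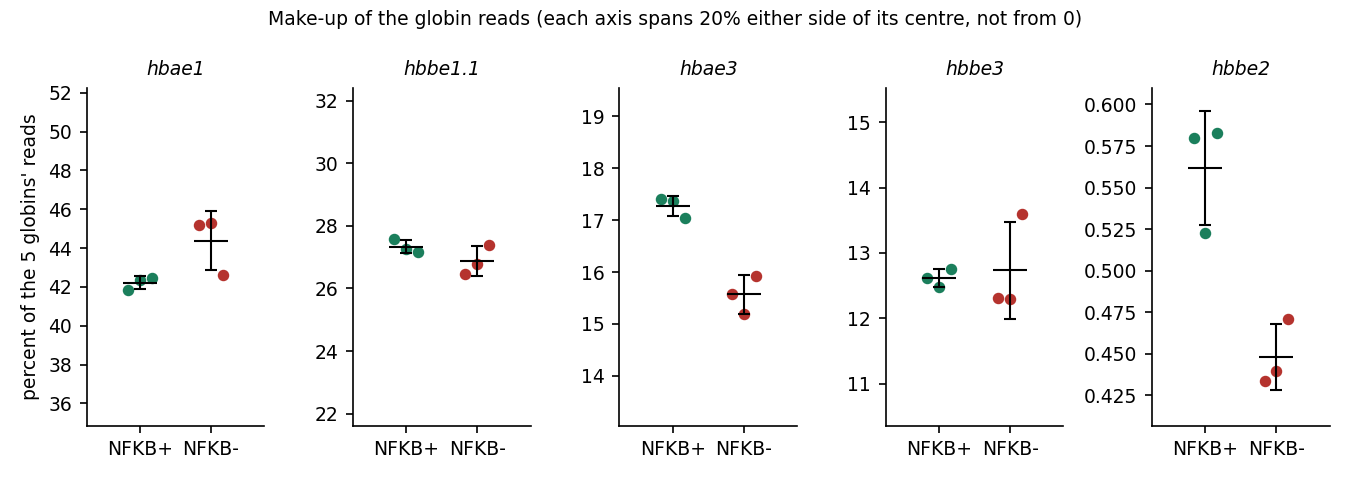
Percent of the 5 globins' reads held by each gene, with 1 point per library, NFKB+ left of NFKB-, and the mean ± SD (n = 3) as black bars. Each axis spans 20% either side of its own centre and does not start at 0. The sorts are apart for hbae3 (17.3% in NFKB+, 15.6% in NFKB-) and hbbe2 (0.562% in NFKB+, 0.448% in NFKB-) and overlap for hbbe1.1 and hbbe3. They do not overlap for hbae1 either (42.2% in NFKB+, 44.4% in NFKB-), although NFKB- library 6 lies close to the NFKB+ libraries.

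Ratios between globins do not depend on the scaling of the libraries, and the selection of the table did not use them. The log2 ratio of hbbe3 to hbae1 was -1.74 ± 0.019 in NFKB+ and -1.80 ± 0.13 in NFKB- cells (SD, n = 3 each), a difference of 0.06 with overlapping sorts (two-sided exact permutation test, p = 0.4). Leaving out 1 library at a time gave differences of 0.02 to 0.14, the largest of them without NFKB- library 6. The ratio of hbbe2 to hbae1 was -6.23 ± 0.094 in NFKB+ and -6.63 ± 0.11 in NFKB- cells, which is a 1.32-fold higher ratio in NFKB+ cells. That was the largest of the 10 pairwise differences, and the sorts did not overlap for it (exact permutation p = 0.1, adjusted over the 10 pairs 0.143). Over the 10 pairs the ratios differed between the sorts by 1.03- to 1.32-fold, and the sorts did not overlap for 7 pairs, or for 9 without NFKB- library 6. Pairs were not counted without any of the other libraries. The pairs share genes and so are not independent, and fewer libraries overlap less easily. The share of other gene pairs without overlap was not computed, so these counts single out no trait of the globins. Summed beta-type reads per alpha-type read were 0.681 ± 0.00727 in NFKB+ and 0.669 ± 0.0343 in NFKB- cells, with overlapping sorts (exact permutation p = 0.5). Summed minor-locus reads (hbbe2 and hbbe3) per major-locus read were 0.152 ± 0.0022 in NFKB+ and 0.152 ± 0.0102 in NFKB- cells (exact permutation p = 1). The ratio of zgc:163057 to its neighbour hbbe3 was 1.21-fold higher in NFKB+ cells, without overlap (exact permutation p = 0.1).

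Genes of other red cell functions were lower in NFKB+ cells as well, but most by less than the globins. Of 99 non-globin erythroid genes on 4 lists, 55 were analysed, of which 51 were lower and 4 higher in NFKB+ cells, and all 55 passed the limma test, as did 100% of the table. Lower genes made up 45.5% of the table. The median log2 difference was -2.41 for these 55 genes and -2.88 for the 5 globins, beside 1.08 over all analysed genes. As genes under 2-fold were not listed, this last median lies near the listing limit, and the quartiles over all genes were -1.46 and 1.53. No erythroid list member had a lower difference than hbae1, and 20 had a lower one than hbbe2. Summed reads of hbae1 and hbbe3 were 1.18 ± 0.067 times those of the 55 genes in NFKB+ and 1.84 ± 0.0408 times in NFKB- cells (SD, n = 3 each). The log2 ratio thus differed by -0.64 between the sorts, which did not overlap (two-sided exact permutation test, p = 0.1). This value depends on the list. The 55 genes include the 4 that were higher in NFKB+ cells and genes such as tal1, which endothelial progenitors also use. Against hbae1, the difference in log2 ratio ran from 0.0054 for nt5c2l1 to 5.56 for slc43a1b. The ratio to sums of other genes was not computed, so -0.64 singles out no trait of the globins. Gene by gene, the ratio to hbae1 was higher in NFKB+ cells without overlap for 47 of the 55 (85.5%), which is near the 90.6% of all 2465 non-globin genes of the table and so is no trait of the erythroid genes. For the remaining 8, abcb6a, ank1a, epor, nfe2, nt5c2l1, slc4a1a, sptb and tmod4, the sorts overlapped.

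Globin needs heme and iron. Of 31 genes of heme synthesis and iron handling, 21 were analysed, 19 lower and 2 higher in NFKB+ cells, with a median log2 difference of -2.43. Transcripts of alas2, the erythroid enzyme that starts heme synthesis, were 13.73 ± 0.19 in NFKB+ and 16.39 ± 0.22 in NFKB- cells (log2, SD, n = 3), 6.35-fold lower. Those of fech, the ferrochelatase that puts iron into the ring, were 11.03 ± 0.13 in NFKB+ and 13.65 ± 0.18 in NFKB- cells, 6.16-fold lower. The pathway enzymes cpox and urod, the reductase gene blvrb and the mitochondrial membrane gene tmem14ca were 6.45-, 6.09-, 6.87- and 6.12-fold lower. Differences were smaller for the ferritin gene fth1a and the transferrin receptor gene tfr1b, which were 3.68- and 2.25-fold lower. The exceptions were the heme oxygenase gene hmox1a, whose product breaks heme down, and the iron exporter gene slc40a1 (ferroportin), which were 3.14- and 3.02-fold higher in NFKB+ cells.

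Of 26 genes of the red cell membrane and its transporters, 12 were analysed, 10 lower and 2 higher, with a median of -2.72. The nucleotidase gene nt5c2l1 stood nearest to hbae1 in fold, at 11.86 ± 0.074 in NFKB+ and 14.83 ± 0.22 in NFKB- cells, 7.86-fold lower. The ankyrin gene ank1a, cahz, slc4a1a, the tropomodulin gene tmod4 and the spectrin gene sptb were 7.33-, 7.24-, 6.98-, 6.97- and 6.63-fold lower. The 2 higher members were the amino acid transporter gene slc43a1b, 5.96-fold, and the glucose transporter gene slc2a1a, which had a mean of only 43.0 normalized reads and sorts that overlapped.

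Of 27 erythroid factors and receptors, 16 were analysed. In NFKB+ cells these 16 were lower, and their median log2 difference was -2.38. The factor gene klf1, whose product drives globin genes in mammals, was 11.00 ± 0.21 in NFKB+ and 13.90 ± 0.21 in NFKB- cells, 7.42-fold lower. The erythropoietin receptor gene epor and the factor genes nfe2, gata1a, klf17 and gfi1b were 7.07-, 6.81-, 6.65-, 6.04- and 5.96-fold lower. The factor gene tal1, which endothelial progenitors also use, was 2.50-fold lower. Of 15 redox and metabolism genes, 6 were analysed, each lower, with a median of -1.60. The thioredoxin gene txn and the peroxiredoxin gene prdx2 were 6.90- and 4.52-fold lower, while cat, pgd, gsr and sod1 were 3.51-, 2.62-, 2.04- and 2.03-fold lower. Of 12 genes listed for heme sensing, chaperones and globin locus neighbours, 4 were analysed, each lower, with a median of -1.44. They were eif2ak1, the heme-regulated kinase of globin translation, and hebp2, hspa9 and nprl3, at 3.04-, 2.94-, 2.52- and 2.27-fold lower.

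**Figure D4:**
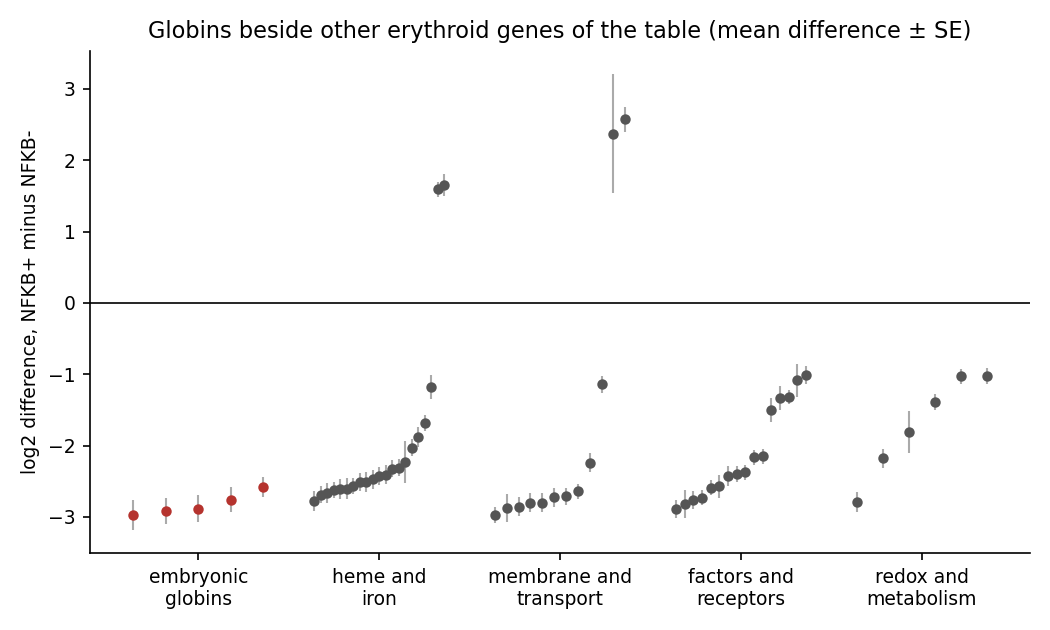
Log2 differences (NFKB+ minus NFKB-) with their SE for the 5 globins (red) and for the analysed genes of 4 other erythroid lists (grey), sorted within each list. The globins lie between -2.98 and -2.58, in the lower part of the erythroid genes, and 20 of those 55 genes lie below hbbe2. The 4 grey points above 0 are slc40a1, hmox1a, slc2a1a and slc43a1b.

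The genes with profiles most like each globin over the 6 libraries were found by the root mean square difference of log2 values, after each gene was centred on its own mean. For hbae1 they were klf1 (0.0549), nt5c2l1 (0.0635), hbbe1.1 (0.0656), cahz (0.0787) and hbbe3 (0.0831). For hbae3 they were the N-myristoyltransferase gene nmt1b (0.0278), blvrb (0.0296), alas2, txn and hbbe1.1. The genes hbbe1.1 and hbbe3 were each other's nearest profile, at 0.0409. Next for hbbe3 came nt5c2l1 (0.0805) and blvrb (0.0815), ahead of hbae1 (0.0831) and hbae3 (0.0890). Next for hbbe1.1 came blvrb (0.0593) and klf1 (0.0645), ahead of hbae3 (0.0649) and hbae1 (0.0656). For hbbe2, tmem14ca (0.0682) came first, then zgc:163057 (0.0720), fech, ankhb and ampd3b. With 2 sorts and 6 libraries this likeness is mainly one of fold.

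Few genes beside the globins were among those analysed. Within 10 gene positions of a globin of the major locus, 24 other genes are annotated and 4 were analysed, and at the minor locus 6 of 22 were analysed. At the major locus, nprl3, whose introns hold a globin enhancer in mammals, was 2.27-fold lower in NFKB+ cells. On the other side of the globins, kank2 and the small MAF gene mafga were 2.12- and 2.87-fold higher and the non-coding gene si:dkey-188h10.3 was 2.33-fold lower. Apart from zgc:163057, the lower neighbours at the minor locus were foxj1b and lcmt1, at 4.12- and 2.05-fold. The aquaporin gene aqp8a.1, arhgap17a and mgrn1a were 6.09-, 2.18- and 2.01-fold higher there. Of the 10 neighbours analysed, 5 were lower in NFKB+ cells, of which zgc:163057 is itself a globin, close to the 45.5% that were lower over the whole table.

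Markers of other cell types also differed between the sorts, some in the direction of the globins and some against it. Over all analysed genes, 54.5% were higher and 45.5% lower in NFKB+ cells, and each was listed because it differed between these sorts. The 21 analysed endothelial markers, of 27 listed, were each higher in NFKB+ cells, with a median log2 difference of 1.82. They include kdrl, the gene whose promoter marks the cells of both sorts, which was 2.30-fold higher in NFKB+ cells. The 21 markers held 8.32% to 8.97% of the table's reads in NFKB+ and 1.43% to 2.32% in NFKB- libraries, and none was at 0 in any library. The 18 analysed myeloid markers, of 22, were each lower, with a median of -3.12, and held 0.194% to 0.243% in NFKB+ and 1.35% to 1.57% in NFKB- libraries. None of them was at 0 either. The myeloid differences ran from -4.67 to -1.79, with quartiles of -3.70 and -2.01. The genes lyz (lysozyme) and mpx (a neutrophil peroxidase), 25.5- and 15.7-fold lower, had larger differences than any globin. Others, such as cebpa and mfap4 at 4.79- and 3.46-fold lower, had smaller differences than every globin. The 3 thrombocyte genes analysed, of 7, were lower, with a median of -2.76, and of these itga2b was at 0 in at least 1 library. Of muscle, epidermis, neural and notochord markers, 0 of 13, 3 of 11, 3 of 9 and 2 of 7 were analysed, with 3 epidermis, 2 neural and 1 notochord gene higher in NFKB+ cells. The part of these cell types in the globin difference was not tested.

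Within a sort, the library lowest in globins was also the lowest in the other erythroid genes. In NFKB+ cells library 1 had the lowest level of each of the 5 globins, and its summed globin and erythroid levels were 0.19 and 0.12 below the sort's mean on the log2 scale. The highest libraries of this sort differed, with summed globins highest in library 3 (0.103 above the mean) and erythroid genes in library 2 (0.099 above it). In NFKB- cells library 4 was lowest and library 6 highest for each of the 5, with summed globin levels 0.24 below and 0.24 above the mean and erythroid levels 0.19 below and 0.21 above it. Endothelial markers in NFKB- cells stood the other way, 0.26 above the mean in library 4 and 0.17 below it in library 6. In NFKB+ cells they varied little, at 0.013, 0.021 and -0.034 from the mean in libraries 1, 2 and 3. Myeloid markers were highest in NFKB+ library 1 and in NFKB- library 6, each 0.16 above the mean. Over the 5 globins, the range between the libraries of a sort was 0.27 to 0.31 in NFKB+ and 0.40 to 0.62 in NFKB- cells, well below the differences between the sorts.

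**Figure D5:**
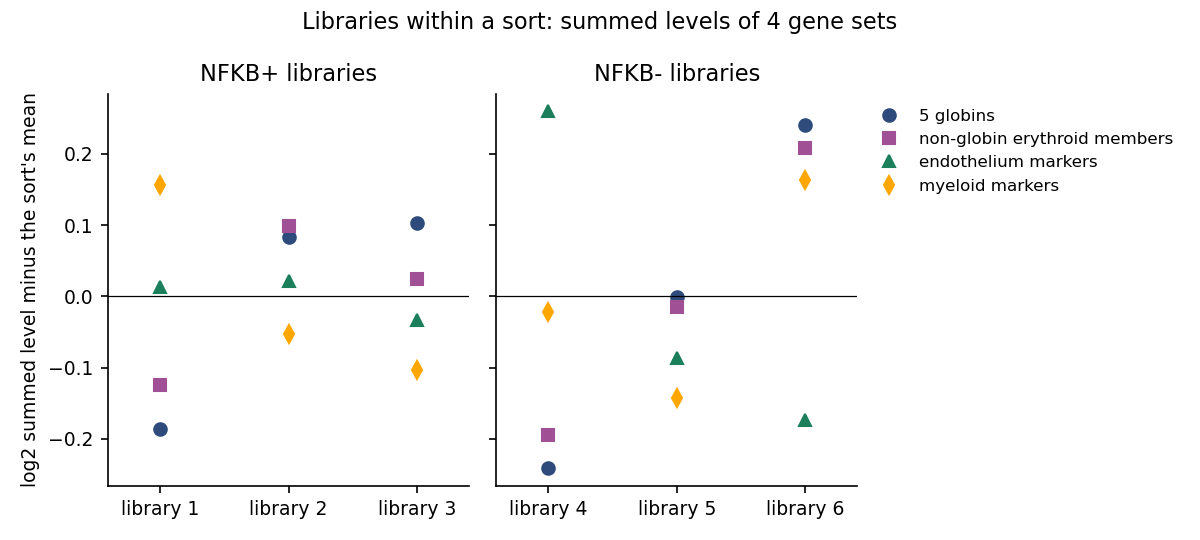
Summed level of 4 gene sets in each library, as the log2 difference from the mean of its own sort, for NFKB+ (left) and NFKB- libraries (right). In NFKB- cells the globin and erythroid points are lowest in library 4 (-0.24 and -0.19) and highest in library 6 (0.24 and 0.21), and the endothelial point runs the other way (0.26 and -0.17).

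The size of the globin difference depends on how the libraries are scaled. With each library set to the same total, hbae1 was 5.60-fold lower in NFKB+ cells, and with median ratios over the table it was 14.5-fold lower, but these scalings moved the median of all genes by 0.49 and -0.88. Relative to that median the log2 difference of hbae1 was -4.05 and -4.06, against -4.06 under the authors' size factors. Scaling a library by a single factor shifts all genes nearly alike, so this likeness was fixed in advance and is no check on the difference.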

How the data were processed

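Per the submitters' processing notes, the tools were cutadapt, STAR, HTSeq and DESeq2 and the build was danRer10; versions and roles are not given. The authors deposited 2475 rows, which per the file headers hold log2 values by library, the log2 average, the log2 fold change, a signed fold score and p-values before and after adjustment. The deposited log2 values were checked: 2 to the power of a value, minus 1, fell on whole multiples of a library's step, to 0.1 read, in 100% of the cases under 1000 reads. Larger values are rounded, so globin reads were recovered only approximately. Names with 2 conflicting rows (4 rows) were left out, leaving 2471 genes. NFKB+ and NFKB- libraries were compared in R 4.3.3 by limma 3.58.1 (eBayes with a mean trend, pseudocount 1, no filter on low values, threshold 0.05), fitted on and adjusted over all genes. The step was tested on simulated data in which most genes were unchanged. Every gene of the real table was selected as different, so that test does not bear on the p-values given here. Shares and ratios per library were compared by exact permutation tests in scipy 1.17.1. The table was filtered on the outcome, so genes outside it were not analysed here. The members, gene lists and rules were chosen with earlier results of these data known. The rule for named genes took the globins, up to 6 members per list with the largest difference and a mean of at least 100 normalized reads, the 5 nearest profiles, the 5 most abundant other genes per sort and neighbours within 10 positions. Other list members were named after their values were seen. The design named hbae1 and hbbe3, and the 3 further genes that the rule matches were added with the same tests.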

Additional observations from a re-analysis of the deposited data

How the results depend on the processing

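Each of the 5 globins kept its direction and passed limma's threshold in 75 of 75 refits, but the selection of the table largely fixed this. Leaving out 1 library at a time gave log2 differences of -3.09 to -2.88 for hbae1, -2.88 to -2.62 for hbae3, -3.01 to -2.75 for hbbe1.1, -2.73 to -2.43 for hbbe2 and -3.06 to -2.75 for hbbe3. The other settings, scalings included, gave -3.86 to -2.49 for hbae1 and -3.80 to -2.43 for hbbe3. The difference in the share of hbae1 and hbbe3, -18.3 percentage points, became -19.7 without the 10 most abundant other genes in the denominator and, chosen after seeing the data, -31.8 with all 5 globins. Without 1 library at a time it ranged from -19.1 to -17.7. The difference between the sorts in the log2 globin to erythroid ratio was -0.64. It became -1.03 with the mean log2 of the members in place of their sum, and ranged from -0.68 to -0.60 without 1 library. For the hbbe3 to hbae1 ratio, the difference between the sorts in log2 ratio ranged from 0.02 to 0.14 without 1 library. Such differences ranged from 0.36 to 0.46 for hbbe2 to hbae1 and from 0.0021 to 0.069 for summed beta to alpha reads. Genes called lower and higher numbered 1124 and 1347, and 1124 and 920 with median ratios over the table. Limma-voom on recovered reads called 1124 and 1347. No paired analysis was possible because columns are numbered through from 1 to 6 and do not show the labels' replicate. Depth limits none of the globin values, since the lowest had 3281 reads in a library.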
